A study of Mus musculus with 2 samples.

Results

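The AP-1 and EGR immediate early genes are 10 transcription factor genes, described here in mammary tumors of MMTV-PyVT mice. They are the Fos genes Fos, Fosb, Fosl1 and Fosl2, the Jun genes Jun, Junb and Jund, the related gene Atf3, and the zinc finger genes Egr1 and Egr3. The members were chosen by name, and all 10 were found among the 55536 genes of the expression table through their Ensembl identifiers in GENCODE mouse release M21. Every mouse of the study carried the MMTV-PyVT transgene, in which the mouse mammary tumor virus promoter drives the polyoma virus middle T antigen in mammary epithelium. One group received the vehicle dimethyl sulfoxide (DMSO) and the other cyanidin-3-glucoside (C3G), a plant anthocyanin, from the stage of ductal hyperplasia onwards. Tumors were collected at a preset burden, and dose, route, age and the time on treatment are not given in the sources used here. RNA of each group was sequenced in 1 library, so no value below has a replicate check and no test was possible. The labels do not say whether a library holds 1 tumor or a pool, and wording such as both tumors refers to the libraries. A difference between treatments and a difference between individual tumors cannot be told apart.

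AP-1 is a family of dimers of basic leucine zipper proteins. A Fos protein needs a Jun partner to bind DNA, whereas Jun proteins can also pair among themselves or with Atf3, and which members are present sets which dimers a cell can form. EGR proteins bind GC-rich sites through zinc fingers and are held in check by the corepressors Nab1 and Nab2. Most of these genes are transcribed within minutes of a growth factor signal, stress or tissue injury, without new protein synthesis, through serum response factor and its ETS partners or through cAMP response element binding proteins, and their short-lived messages decay soon afterwards. In epithelium that expresses middle T, the antigen acts through Src family kinases, the Ras and ERK pathway and phosphoinositide kinases, which are common routes to these genes.

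The 150 bases before the RefSeq start site are printed for 6 members, the Fos genes that were well measured, 2 of the Jun genes and Atf3, because these genes differed by unequal amounts between the tumors and their proximal promoters can be read side by side. Sequences are from RefSeq on GRCm38.p6, the assembly behind mm10, 5′ to 3′ on the gene's own strand. Capitals mark matches on either strand to TGACG, the core shared by binding sites of cAMP response element binding proteins and ATF proteins, to TGACATCA, a Jun and ATF type of site, and to TATAAA.
Fos (chr12:85473740-85473889, plus strand): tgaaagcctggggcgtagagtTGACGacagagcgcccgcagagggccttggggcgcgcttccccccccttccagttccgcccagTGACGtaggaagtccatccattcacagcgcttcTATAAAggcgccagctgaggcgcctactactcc
Fosb (chr7:19310046-19310195, minus strand): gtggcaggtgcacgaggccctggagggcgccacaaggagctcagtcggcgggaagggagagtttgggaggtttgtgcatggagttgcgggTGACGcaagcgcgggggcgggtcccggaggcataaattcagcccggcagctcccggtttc
Fosl2 (chr5:32136322-32136471, plus strand): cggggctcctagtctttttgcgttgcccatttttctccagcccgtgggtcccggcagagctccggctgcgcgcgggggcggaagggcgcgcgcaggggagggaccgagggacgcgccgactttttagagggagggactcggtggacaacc
Jun (chr4:95052223-95052372, minus strand): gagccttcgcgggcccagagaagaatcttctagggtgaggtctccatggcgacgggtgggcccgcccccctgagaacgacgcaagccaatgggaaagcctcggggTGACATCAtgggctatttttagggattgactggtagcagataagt
Junb (chr8:84978749-84978898, minus strand): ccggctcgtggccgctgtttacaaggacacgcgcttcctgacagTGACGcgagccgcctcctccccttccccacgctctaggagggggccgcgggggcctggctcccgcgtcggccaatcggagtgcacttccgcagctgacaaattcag
Atf3 (chr1:191183334-191183483, minus strand): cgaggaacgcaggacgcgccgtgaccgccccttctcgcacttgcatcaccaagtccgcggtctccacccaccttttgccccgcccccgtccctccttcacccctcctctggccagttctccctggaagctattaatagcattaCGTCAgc

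The RefSeq table held 7 of the 10 members, Jund being the seventh, and Fosl1, Egr1 and Egr3 were not matched. Motifs were searched on both strands over 300 bases, from 250 before to 50 after each start. TGACG was present in 4 of the 7 (Fos, Fosb, Junb and Atf3) and in 20.8% of all 32851 promoters of that table. Fos held it at 129 and at 66 bases before the start, Fosb at 60, Junb at 106 and Atf3, on the opposite strand, at 7. Jun held TGACATCA, 45 bases before its start, a sequence found in 3.62% of all promoters. TATAAA was found in Fos, 33 bases before the start, and in Junb from the first transcribed base on, against 13.6% of all promoters. The RefSeq start of Junb lies 30 bases before the GENCODE gene start, so the Junb match precedes the latter by that distance. GCGNGGGCG, an EGR type of site, was found in Fosb, 50 bases before the start, in Fosl2, 79 bases before it, and in 5.55% of all promoters. The full palindrome TGACGTCA (1.79% of promoters), the AP-1 site TGAGTCA (5.20%) and the CArG box of serum response factor (1.63%) were in none of the 7 windows. Sites more than 250 bases before the start were not searched, nor was any sequence of Fosl1, Egr1 or Egr3, so these genes may hold such sites elsewhere. These are matches of letters only. TGACG is part of TGACGTCA. The RefSeq start lies 34706 bases from the GENCODE gene start for Atf3, 1210 for Jund and 671 for Fosl2. The windows of Atf3, Jund and Fosl2 may thus not hold the promoter most used in these tumors.

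The 10 members summed to 7366 TPM with DMSO and to 4825 TPM with C3G. TPM is transcript abundance per gene length, scaled to 1000000 per library, so levels can be compared between genes whose reads are counted over their full length. They took 0.790% of gene-assigned reads in the DMSO library (Wilson 95% interval 0.785 to 0.795) and 0.491% in the C3G library (0.487 to 0.494). The 7 members with the highest levels were all lower in the C3G library, Fosl2 and Egr3 were higher, and Fosl1 was close to undetected in both. Calls by size required 5 TPM or more in either library and a value of log2((C3G TPM + 1)/(DMSO TPM + 1)) of 1 or more in size. By this rule 4 of the 9 members above the minimum were called, against 7.40% of 12780 genes in the whole table. Fosl2 and Egr3 were higher (3.10% of all genes) and Jun and Fosb were lower (4.30%). Among genes with a mean of at least 100 TPM, where the 7 abundant members lie, 5.04% were called, 15 higher and 55 lower, and their median log2 ratio was 0.00. The median of the 9 members was -0.40, and that of the 17468 genes with a mean of at least 1 TPM was 0.10.

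**Figure D1:**
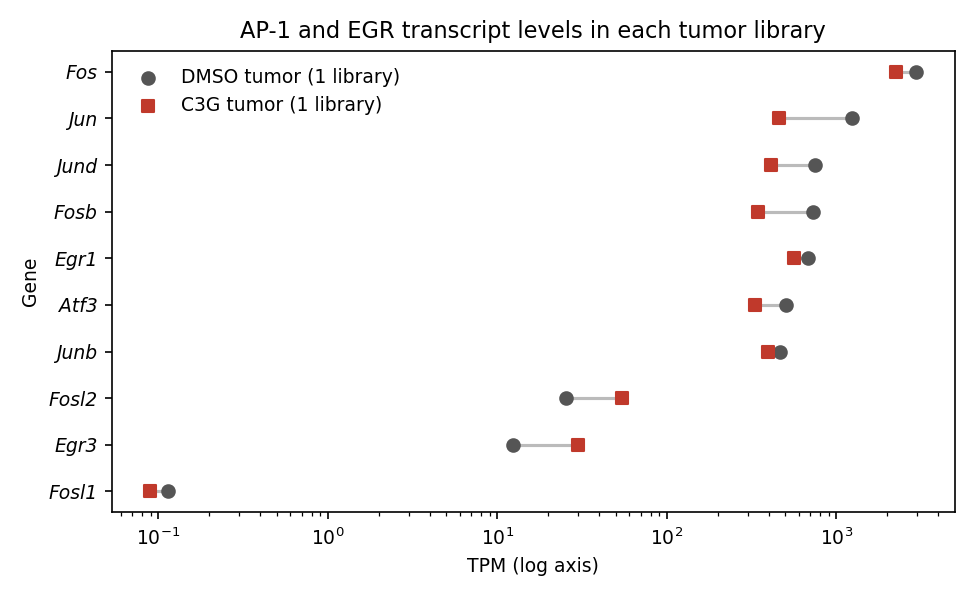
TPM of the 10 genes in each library, on a log axis, with a grey line joining the DMSO value (circle) and the C3G value (square), 1 library per group. The 7 genes with 332 TPM or more lie further left with C3G, Fosl2 and Egr3 lie to the right, and Fosl1 lies near 0.1 TPM in both.

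Among the Fos genes, Fos was by far the most abundant and differed little in relative terms. Fos (chr12:85473890-85477273, plus strand) encodes the founding member of the family, which carries a transactivation domain and gives strongly activating dimers with Jun. Its level was 2964 TPM for DMSO and 2245 TPM for C3G, from 30229 and 29013 reads. Fos ranked number 27 of all genes with DMSO and number 34 with C3G, so it was among the most abundant transcripts of both tumors. The ratio was 1.32-fold lower with C3G (1.30 to 1.34). This and the other intervals after folds are exact conditional 95% intervals from read counts, and they cover counting error only. The log2 ratio of Fos was -0.40, and 16.9% of the 17468 genes had a value as low or lower.

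Fosb (chr7:19302696-19310051, minus strand), whose splice form DeltaFosB lacks part of the activation domain and is more stable, differed more than Fos. It stood at 728 TPM after DMSO and 344 TPM after C3G, 2.12-fold lower (2.07 to 2.17). The table gives 1 value per gene, so the splice forms were not separated. Per 100 TPM of Fos there were 24.5 TPM of Fosb with DMSO and 15.3 with C3G. This ratio within a library does not depend on how the libraries are scaled, and it was 1.60 times lower in the C3G library.

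Fosl2 (chr5:32135801-32157842, plus strand) encodes Fra-2, a Fos protein without the strong activation domain that typically appears later and lasts longer than Fos. It stood at 25.5 TPM after DMSO and 54.6 TPM after C3G, 2.14-fold higher (1.99 to 2.29), on 1072 and 2903 reads. It thus lay on the opposite side from Fos and Fosb. Fosl2 amounted to 0.862 TPM per 100 TPM of Fos with DMSO and 2.43 with C3G, 2.82 times more. Its log2 ratio of 1.07 was just past the threshold, and it was 0.96 with a pseudocount of 5, 0.95 with log2 ratios centred on well-expressed genes and 0.97 with length and GC trends removed. Fosl2 has the longest exon length of the members, 9680 bases. Genes of the longest eighth, from 8493 bases up, had a median log2 ratio of 0.21, and the shortest eighth -0.20.

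Fosl1 (chr19:5447547-5455946, plus strand) encodes Fra-1, the Fos protein most often linked to invasive and mesenchymal-like breast cancer cells. It had 1 read in each library, 0.113 TPM after DMSO and 0.0895 TPM after C3G. Both values lie under the level of 3 reads, which for this gene is 0.340 TPM and 0.269 TPM, so no fold is given. Of its 2033 exon bases, 1163 overlap Ccdc85b on the opposite strand, which had 324 and 352 reads. The library kit does not mark strand, and reads in the shared bases could not be assigned by strand. If they were left out, the TPM of Fosl1 is too low in both libraries.

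**Figure D2:**
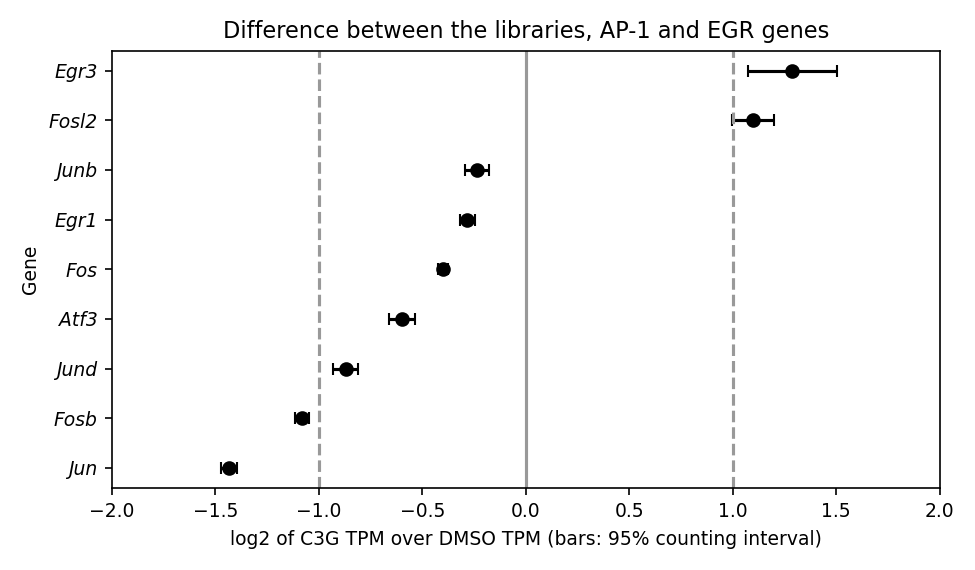
Log2 of C3G TPM over DMSO TPM for the 9 genes with a mean of at least 1 TPM, 1 library per group, with 95% counting intervals as bars and dashed lines at 1 and -1. Jun and Fosb lie left of -1, Fosl2 and Egr3 right of 1, and the other 5 genes between -0.87 and -0.24.

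The Jun genes provide the obligate partners of the Fos proteins, and all 3 were lower in the C3G library, by unequal amounts. Jun (chr4:95049034-95052222, minus strand), which encodes c-Jun, the main target of the JNK kinases, had the lowest log2 ratio of the 10 members. Jun stood at 1241 TPM after DMSO and 458 TPM after C3G, 2.71-fold lower (2.64 to 2.78), on 17152 and 8031 reads. It ranked number 94 of all genes with DMSO and number 228 with C3G. Its log2 ratio was -1.43, and 2.83% of genes had a value as low or lower. Its antisense neighbour Junos overlaps 232 of its 3189 exon bases and had 78 and 104 reads. If reads in the shared bases were left out, the TPM of Jun is too low in both libraries.

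Jund (chr8:70698949-70700616, plus strand), the Jun gene that many resting cells express constantly and that can slow proliferation, stood at 748 TPM after DMSO and 409 TPM after C3G. It was 1.83-fold lower (1.75 to 1.91), with a log2 ratio of -0.87, short of the threshold. The antisense gene Gm11175 covers 877 of its 1668 exon bases and had no read in either library. Reads in these bases could not be assigned by strand, and counting them for both genes would have given Gm11175 reads. They were thus probably left out, in which case the TPM of Jund is too low in both libraries. The counting rule itself is not given. Junb (chr8:84974484-84978718, minus strand), which activates more weakly than Jun and can oppose it, was the Jun gene that differed least. Junb stood at 464 TPM after DMSO and 393 TPM after C3G, 1.18-fold lower (1.13 to 1.23). With length and GC trends removed, the log2 ratio of Junb was -0.11 instead of -0.24, and that of Jund -0.63 instead of -0.87. Junb shares 173 of its 2301 exon bases with Prdx2 on the opposite strand, which had 2679 and 3846 reads. Reads in these bases may likewise have been left out.

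Because the members differed unequally, the make-up of each family differed between the tumors. Jun accounted for 50.6% of the summed TPM of the Jun genes with DMSO and 36.3% with C3G. The share of Junb was 18.9% and 31.2%, and that of Jund 30.5% and 32.5%. With DMSO the order was Jun, Jund, Junb, and the same order held with C3G but with all 3 within 393 to 458 TPM. Reads in the bases that Jund shares with Gm11175 were probably left out, so Jund may rank higher than this order shows. All shares in this family are uncertain for the same reason. Per 100 TPM of Junb there were 267 TPM of Jun with DMSO and 117 with C3G. Summed over each family, Jun genes stood at 2453 and 1261 TPM and Fos genes at 3718 and 2643 TPM, so Fos transcripts outnumbered Jun transcripts in both. Fos made up 79.7% of the Fos family with DMSO and 84.9% with C3G, Fosb 19.6% and 13.0%, and Fosl2 0.687% and 2.06%. These are transcript shares, and the proteins and their dimers were not measured.

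**Figure D3:**
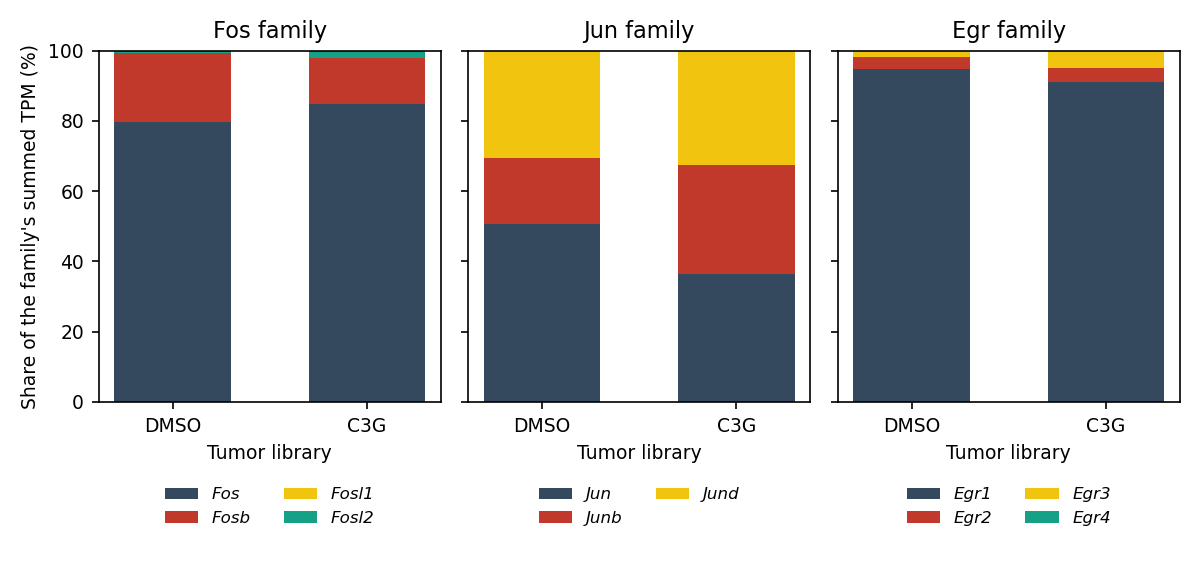
Share of each gene in the summed TPM of its family, in percent, for the DMSO and the C3G library. Jun takes 50.6% of its family with DMSO and 36.3% with C3G, Fos takes 79.7% and 84.9%, and Egr1 94.9% and 91.1%. The Jun family shares are uncertain, because reads in the bases that Jund shares with Gm11175 were probably left out.

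Atf3 (chr1:191170296-191218039, minus strand) is a stress-induced member of the ATF and CREB family that pairs with Jun proteins and represses transcription as a homodimer. It stood at 503 TPM after DMSO and 332 TPM after C3G, 1.51-fold lower (1.45 to 1.58), with a log2 ratio of -0.60. Since Jun was lower by more, Atf3 amounted to 40.5 TPM per 100 TPM of Jun with DMSO and 72.4 with C3G.

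The EGR genes Egr1 and Egr3 went in opposite directions. Egr1 (chr18:34859823-34864984, plus strand), a growth factor-induced activator of many genes, stood at 680 TPM after DMSO and 559 TPM after C3G, 1.22-fold lower (1.19 to 1.25). Egr3 (chr14:70077203-70082614, plus strand), known from muscle spindles, lymphocytes and estrogen-responsive breast cells, stood at 12.3 and 30.0 TPM. It was 2.44-fold higher with C3G (2.10 to 2.84), on 235 and 726 reads, and kept its call under all 8 alternative settings. Its log2 ratio of 1.22 was the highest of the members, and 97.0% of genes had a value as low or lower. There were 1.81 TPM of Egr3 per 100 TPM of Egr1 with DMSO and 5.36 with C3G, 2.96 times more. Egr2, the family member active in myelinating cells and macrophages, stood at 24.0 TPM in each library, with a ratio of 1.00 (0.871 to 1.16). Egr4 was below 1 TPM in both, at 0.430 and 0.932. The corepressor genes Nab1 (76.4 and 86.7 TPM) and Nab2 (33.6 and 32.3 TPM), of which Nab2 is an EGR target, were not called.

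**Figure D4:**
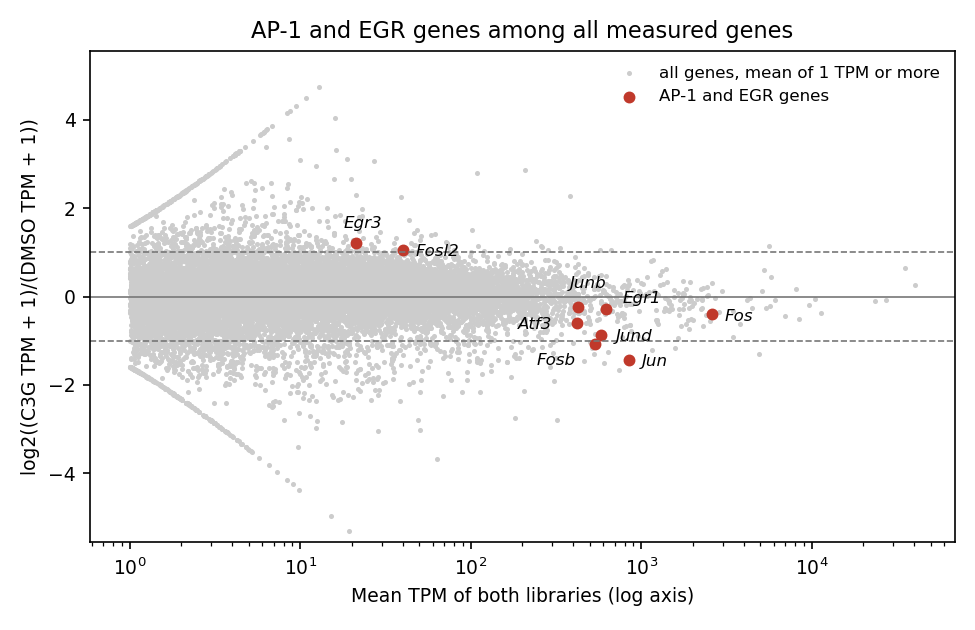
Log2((C3G TPM + 1)/(DMSO TPM + 1)) against the mean TPM of both libraries (log axis) for all genes with a mean of at least 1 TPM in grey and the 9 members in red, with dashed lines at 1 and -1. The 7 lower members lie among the most abundant genes, and Egr3 and Fosl2 lie at means of 21.1 and 40.1 TPM.

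The gene structures are compact. The longest coding transcripts of Jun, Junb and Jund have 1 exon, those of Egr1 and Egr3 have 2 and those of Fos, Fosb, Fosl1, Fosl2 and Atf3 have 4. The median was 9 exons over 13126 coding genes with a mean of at least 1 TPM and an annotated 3′ UTR. AU-rich elements built on ATTTA mark many short-lived messages. They were counted on the message strand of the 3′ UTR, overlaps included, and 9 of the 10 members were above the median density of 1.26 per kilobase. Fos had 4.91 per kilobase, Junb 4.12, Jun 3.24, Egr3 2.65, Atf3 2.53, Jund 1.88, Fosl2 1.72, Egr1 1.65 and Fosl1 1.57. Fosb, at 0.466, was the exception. The longer TATTTAT, which contains ATTTA, was present in 7 of the 10, all but Junb, Egr1 and Egr3, and in 29.5% of the 13126 genes. Fos had 2 copies and Fosl2 had 3. Whether these elements bear on the differences between the tumors was not tested.

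Other genes of the immediate early response lay on both sides of 0. Of 48 listed genes 47 had a mean of at least 1 TPM, 24 were above 0 and 23 below, and their median log2 ratio was 0.01. By size 5 were higher and 2 lower. The lower genes were the Kruppel-like factors Klf2, at 202 and 62.2 TPM (3.24-fold lower, 2.96 to 3.56), and Klf4, at 201 and 89.2 TPM (2.25-fold lower, 2.11 to 2.40). The 5 higher genes were the following. Errfi1, an inhibitor of EGF receptor family kinases, stood at 161 and 358 TPM (2.23-fold higher, 2.13 to 2.34). The CREB-responsive kinase Sik1 stood at 213 and 455 TPM, the ERK target Ier3 at 432 and 901 TPM, the ERK phosphatase gene Dusp4 at 10.6 and 23.0 TPM and the kinase gene Sgk1 at 49.3 and 101 TPM. With centred log2 ratios Errfi1, Klf2 and Klf4 stayed called, 1 higher and 2 lower, and the other 4 higher genes were not. With a pseudocount of 5 Dusp4 and Sgk1 lost their calls, and Sgk1 also did with length and GC trends removed.

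Genes for the proteins that partner with or act upstream of AP-1 were taken as separate lists. Of 24 listed basic leucine zipper partners, EGR relatives and corepressors, 22 were measured at a mean of 1 TPM, 12 above and 10 below 0, with a median of 0.02. The interferon-induced Batf2 was called lower, at 5.30 and 0.866 TPM (6.13-fold, 3.25 to 12.5), on 58 and 12 reads. It just reached the minimum of 5 TPM, and it was not called with a pseudocount of 5 or with the minimum raised to 20 TPM. Batf, a lymphocyte AP-1 protein that competes with Fos for Jun, stood at 7.05 and 3.37 TPM, Batf3, needed for cross-presenting dendritic cells, at 4.33 and 2.39 TPM, and the AP-1 repressor Jdp2 at 21.4 and 14.4 TPM. Atf1 (41.3 and 60.4 TPM), Atf2 (18.8 and 27.6 TPM) and Atf7 (26.7 and 35.1 TPM) bind the TGACG core. They were 1.46-fold (1.32 to 1.62), 1.47-fold (1.33 to 1.61) and 1.31-fold (1.23 to 1.41) higher. Other ATF and CREB genes of the list lay on both sides of 0, such as Atf4 (368 and 336 TPM) and Creb1 (13.3 and 17.4 TPM). Of 30 upstream kinases and serum response factor genes none was called, 23 of 29 measured were above 0, and the median was 0.23. The ETS factor gene Elk1 stood at 4.97 and 9.30 TPM and the ERK-activated kinase gene Rps6ka3 at 20.2 and 36.0 TPM. The stress kinase gene Mapk14 stood at 35.4 and 52.2 TPM, its activator Map2k6 at 6.83 and 10.4 TPM, and the nuclear kinase gene Rps6ka5 at 4.14 and 6.07 TPM. Srf (31.1 and 36.0 TPM), the ERK gene Mapk3 (223 and 248 TPM) and the JNK gene Mapk8 (7.48 and 9.80 TPM) differed by less. Kinase activity is set by phosphorylation, which transcript levels do not show.

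A list of 44 genes known as targets of AP-1 or EGR factors in other systems had 35 measured members, 15 above and 20 below 0, with a median of -0.13. The chemokines Cxcl2 (1.56 and 7.92 TPM) and Ccl2 (11.8 and 25.7 TPM) and the cytokine gene Il1b (6.29 and 15.5 TPM) were higher by size. Sprr1a, a cornified envelope gene (31.8 and 3.61 TPM), and Pdgfa, a growth factor gene with EGR sites (74.8 and 32.4 TPM), were lower. The membrane collagenase gene Mmp14 stood at 106 and 56.1 TPM, short of the threshold. With centred log2 ratios Mmp14 was called lower and Ccl2 lost its call, which gave 2 higher and 3 lower. The 3 higher genes lost their calls under a pseudocount of 5 while the 2 lower ones kept them, and with the minimum raised to 20 TPM Ccl2 was the higher gene left.

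**Figure D5:**
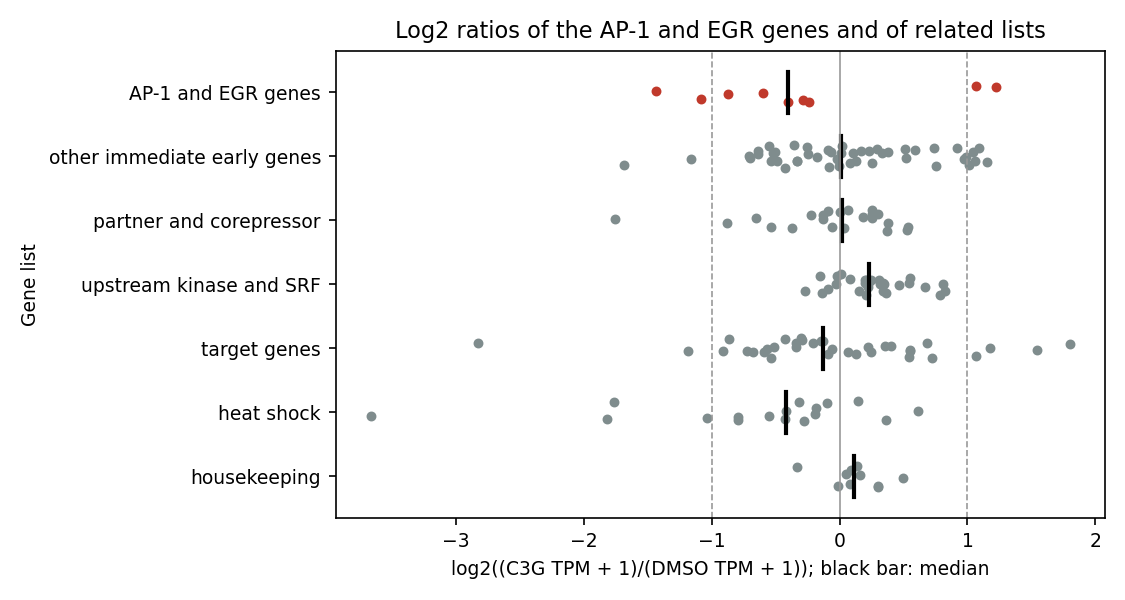
Log2((C3G TPM + 1)/(DMSO TPM + 1)) of each gene with a mean of at least 1 TPM, by list, with the list median as a black bar and dashed lines at 1 and -1. The 9 members have a median of -0.40, the heat shock genes -0.42, the other immediate early genes 0.01 and the housekeeping genes 0.11.

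Several other measures differed between the libraries together with the members. In bulk tissue, fewer cells of a type and less RNA per cell cannot be told apart. Heat shock genes had a median of -0.42, and 14 of 17 lay below 0. Called lower were 4 of them, Hspa1a (118 and 8.40 TPM) and Hspa1b (270 and 76.0 TPM), whose near-identical sequences make the split of reads uncertain, Cryab (179 and 52.2 TPM) and Hspb1 (675 and 328 TPM), of which Hspb1 was not called with length and GC trends removed. The chaperone gene Hsph1 stood at 43.7 and 24.8 TPM. Basal and myoepithelial markers were below 0 in 8 of 10, with sums of 1205 and 618 TPM. Luminal markers were below 0 in 9 of 12, with sums of 8631 and 6423 TPM, and Krt8, Krt18 and Epcam were abundant in both tumors, as the tissue label implies. T and natural killer cell markers were below 0 in 11 of 11 measured (82.1 and 26.2 TPM), and B and plasma cell markers in 5 of 5 (130 and 61.6 TPM). Many of these markers were low, and 5 of the 12 T and natural killer and 3 of the 8 B and plasma markers reached 5 TPM. Igkc stood at 65.5 and 12.0 TPM and Ighm at 50.3 and 43.9 TPM. Adipocyte markers were above 0 in 10 of 10, with sums of 266 and 1451 TPM, and endothelial markers in 10 of 10, with sums of 45.0 and 111 TPM. Fibroblast (1588 and 1312 TPM) and macrophage (2103 and 1920 TPM) markers had no gene called. Among 8 neutrophil markers Ly6g, Elane and Retnlg had no read in either library, and 3 were measured, 1 above 0 and 2 below. The sums were 35.4 and 56.1 TPM, of which S100a8 made up 28.9 and 50.3 TPM. Of 10 housekeeping genes none was called, and their median was 0.11. Ribosomal RNA loci took 0.308% of reads with DMSO and 0.654% with C3G. The part of these differences in the values of the AP-1 and EGR genes was not tested.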

How the data were processed

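Gene-level RNA sequencing values of 2 mammary tumor libraries, 1 per group, were used. Per the labels' protocols, RNA came from RNeasy Plus columns and libraries from the TruSeq RNA kit, version 2. Per the submitters' processing notes, the tools were FastQC, MultiQC, Trimmomatic 0.38 and featureCounts 2.0.0 and the build mm10. The aligner and the treatment of multi-mapping reads are not given in the sources used here. The authors deposited TPM for 55536 genes, and all identifiers matched GENCODE M21 (GRCm38).

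Multiplied by exon-union length, 100% of the TPM values above 0 were whole multiples of a library-specific step (tolerance 0.01 of a step). Counting each step as 1 read gave 12192275 reads for DMSO and 16081110 for C3G, used for intervals and read shares only. PCR copies could not be removed for want of molecular identifiers, so intervals cover counting error only. No count test was run.

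Log2 ratios used a pseudocount of 1 and are compressed for low genes, whereas folds are ratios of TPM with no pseudocount. Medians used genes with a mean of at least 1 TPM. The named genes were all 10 members, up to 6 genes per list with the largest log2 ratio in size among those reaching 5 TPM, any further called gene, and a few fixed relatives, of which 2 genes are not reported here. Markers were given as sums, and the few named were chosen after their values were seen. Members and lists were chosen with earlier results of these data known. Of the listed symbols 4 were matched through RefSeq synonyms. Calls and intervals were tried on simulated counts that held counting error only. These hold no spread between tumors, so they do not show how the calls fare against it. The alternatives were other pseudocounts, filters, centring, rescaling, removal of length and GC trends in 20 bins each and, added after the data were seen, a minimum of 50 reads. Analyses used Python 3.11.15, pandas 2.3.3, numpy 2.4.6 and SciPy 1.17.1.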

Additional observations from a re-analysis of the deposited data

How the results depend on the processing

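Jun, Fosb and Egr3 kept their calls under all 8 alternatives. Fosl2 was no longer called with a pseudocount of 5, with centring (a shift of 0.12) or with length and GC trends removed, which left 1 member higher. The median log2 ratio of the members was -0.34 with no filter on low values, -0.52 with centring and -0.31 with trends removed. In the main setting 946 genes were called, 396 higher and 550 lower. The counts were 488 (179 and 309) with a pseudocount of 5, 2304 (1086 and 1218) with no filter, 350 (109 and 241) with the stricter filter of a mean of 5 and a higher value of 20 TPM, and 530 (218 and 312) with at least 50 reads. Of all calls 41.9% were higher, against 31.0% with centring, 31.1% with the stricter filter and 56.2% with trends removed. Of the partner list 1 gene was called, 2 with a pseudocount of 0.1 or with centring, and 0 with a pseudocount of 5 or the stricter filter. Of the target list 5 were called (3 higher, 2 lower), 2 with a pseudocount of 5 (0 and 2) and 3 with the stricter filter (1 and 2). Centring gave 5 calls in this list (2 and 3), and no filter or rescaling gave 6 (4 and 2). Of the other immediate early genes 7 were called (5 and 2), and 3 with centring (1 and 2). Of the heat shock genes 4 were called, and 3 with trends removed. No p-value underlies any of these counts. The 7 lower members stayed below 0 under all 8 alternatives. No paired analysis was possible because each group has 1 library, and for the same reason no library could be left out. Depth limits Fosl1, Egr4 and Batf2, which had few reads, and the spread between tumors is unknown for every gene.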
